A study of Mus musculus with 25 samples.

Results

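The comparison set the livers of 3 mice on the FAT-MASH regimen that also drank 5% mannose for the whole 12 weeks against the livers of 3 mice on normal chow. These are 6 of the 25 libraries of the series, chosen by their labels, and they address what stays different from healthy liver when mannose is given from the start of the regimen. All mice were male C57BL/6J, 8 weeks old at the start, housed 3 to 5 per cage, and each library is labelled as a biological replicate. The regimen is a model of steatohepatitis: a chow rich in sucrose (41%), fat (21.1%) and cholesterol (1.25%), water sweetened with fructose (23.1 g/L) and glucose (18.9 g/L), and carbon tetrachloride injected into the peritoneum once a week. Mannose was dissolved in the drinking water at 5% (w/v). The normal-diet mice ate standard chow and drank water with no mannose, and the labels name no injection for them, so diet, toxin and mannose differ between the 2 groups at once and cannot be told apart in this comparison. Another group, 3 mice on the regimen without mannose and of the same batch label, is used below to show where the regimen alone stood and to test what differed with mannose.

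Steatohepatitis combines fat storage in hepatocytes with hepatocyte injury, recruited macrophages and the deposition of collagen by stellate cells. Carbon tetrachloride is turned into a toxic radical by cytochromes P450 of the hepatocytes around the central vein, above all Cyp2e1, and a cholesterol-rich diet shuts down the liver's own sterol synthesis through retention of SREBP2. Mannose is phosphorylated by hexokinases and then either converted to fructose 6-phosphate by Mpi or, through the phosphomannomutases Pmm1 and Pmm2, used to build glycans.

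Messenger RNA of whole liver was sequenced, and the files give whole-number read counts per gene. Levels below are CPM, counts scaled to a common library size by TMM, in the order of replicates 1, 2 and 3. Differences are log2 fold changes with their standard errors from edgeR's quasi-likelihood test, fitted on the 18 libraries of the first batch, with Benjamini-Hochberg adjustment over all 19571 genes tested. A gene is called, and said to rise or fall, at an adjusted p under 0.05. A log2 value of 1 is a change by a factor of 2. In whole tissue, fewer cells of a type and less RNA per cell cannot be told apart.

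Between the regimen with 5% mannose and the normal diet, 4387 genes were called, 22.4% of those tested. Of these, 2403 were higher (12.3%) and 1984 were lower (10.1%), and 1404 rises and 587 falls reached a log2 fold change of at least 1. The shares of 12.3% and 10.1% are the background for each list count against the normal diet below. The libraries of the groups did not overlap in 38.0% of all genes tested, a background for statements below that groups did not overlap. Many genes named below were picked by their small p, and the largest changes by a rule that required no overlap. For these genes a lack of overlap describes the values and adds no support. The median over all genes tested was 0.01. Of the calls 54.8% were higher, and with libraries scaled by their totals alone 77.7%, where the median of all genes moved to 0.19. For the regimen without mannose against the same normal-diet libraries, 2687 genes were called (13.7%), 1528 higher (7.81%) and 1159 lower (5.92%). For that pair of groups 32.8% of genes did not overlap, and for the regimen with against without mannose 20.2%. Both comparisons with the normal diet use the same normal-diet libraries, so their counts are not independent of each other. The direct test between the regimen with and without mannose called 445 genes (2.27%), 189 higher with mannose (0.966%) and 256 lower (1.31%).

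**Figure D1:**
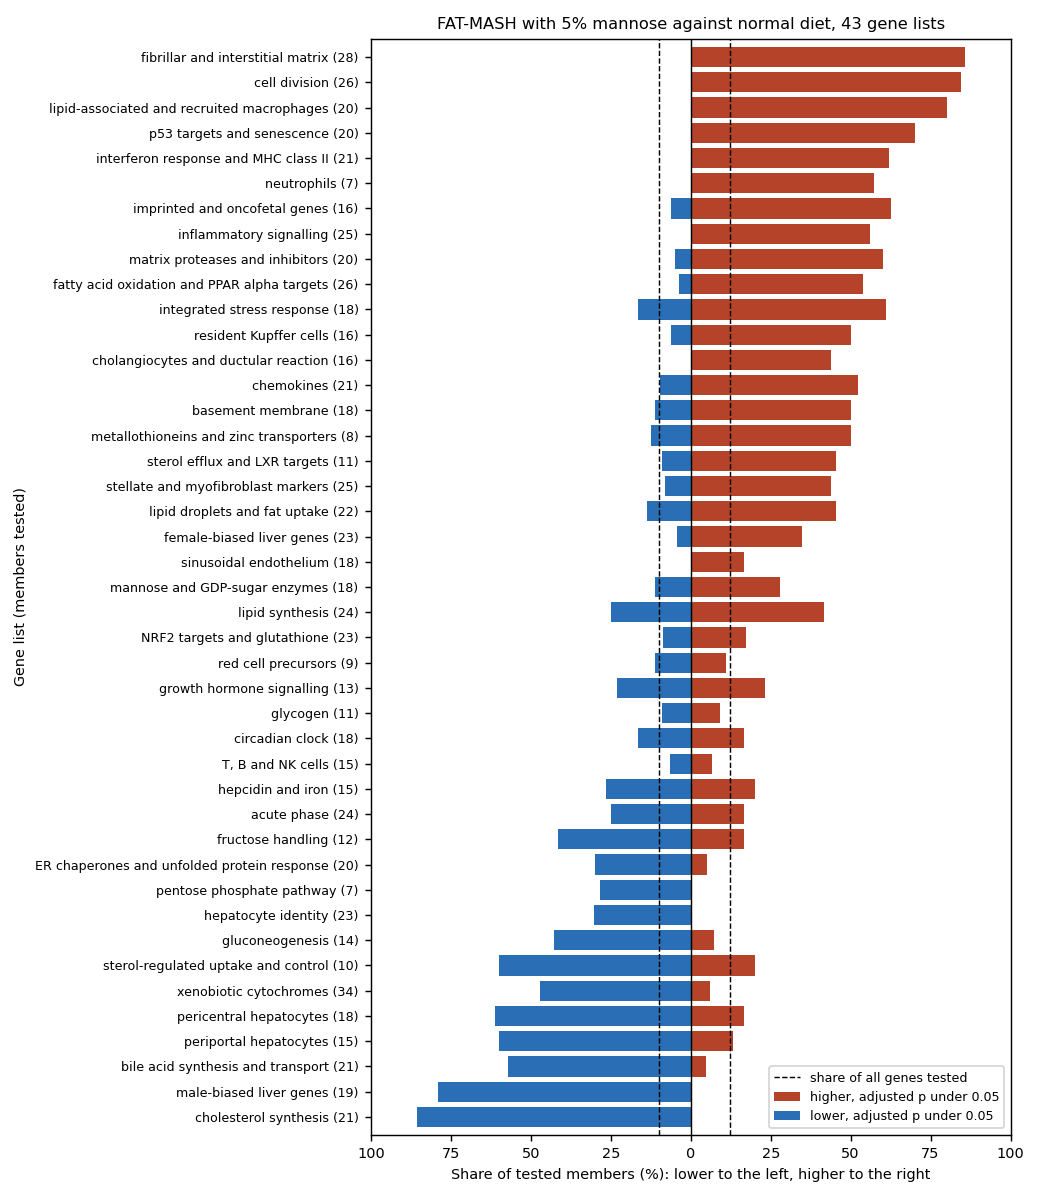
Share of the tested members of each of 43 gene lists that were called higher (right, red) or lower (left, blue) in FAT-MASH with 5% mannose than on the normal diet, with the number tested in parentheses. The dashed lines mark 12.3% higher and 10.1% lower, the shares over all genes tested. Interstitial matrix (24 of 28 higher), cell division (22 of 26 higher) and recruited macrophage genes (16 of 20 higher) lie at the top, and cholesterol synthesis (18 of 21 lower) and male-biased liver genes (15 of 19 lower) at the bottom.

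The 6 libraries compared held 32347366 to 42868593 counted reads, and the 10 most abundant genes took 16.3% to 18.64% of them. The liver genes Alb, Ttr, Apoa1, Trf and Hnf4a were abundant in all 6 libraries. Of the markers of adjacent tissue, the pancreatic genes Cpa1 and Prss2, kidney Umod and fat Adipoq did not pass the filter on low counts. Cela1, a pancreatic elastase, was at 40.2, 45.5 and 67.2 CPM on the normal diet and 13.7, 14.5 and 13.4 CPM in the mannose group, and its part in any result was not tested. Smooth-muscle Myh11 was at 4.74, 10.03 and 2.73 and at 4.299, 1.51 and 2.804 CPM. Several libraries stood apart within their group: normal-diet replicate 2 in macrophage genes, mannose replicate 1 in resident Kupffer genes and mannose replicate 2 in xenobiotic genes. Their values are given beside the results they touch.

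Sterol synthesis stayed far below the level of the normal diet. Of the 21 enzymes that turn acetyl-CoA into cholesterol, 18 fell, with a median log2 fold change of -1.93 over the list. Msmo1, a sterol methyl oxidase (ENSMUSG00000031604.11, chr8:65171173-65186826, GRCm39), was at 432, 365 and 498 CPM on the normal diet and at 44.2, 43.4 and 45.6 CPM with the regimen and mannose, a log2 fold change of -3.28 ± 0.17 (adjusted p = 2.5e-10). The mannose libraries lay close together and far below every normal-diet library. Fdft1, which makes squalene, fell from 247, 236 and 279 to 70.6, 85.2 and 69.7 CPM (-1.76 ± 0.13, adjusted p = 3.05e-08). Its groups did not overlap either. Sc5d (-0.34) and Lbr (-0.09) were among those not called, Sc5d being called without mannose replicate 3 (adjusted p = 0.0354).

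The same enzymes were lower still in the regimen without mannose, where 19 of 21 were called lower with a median of -2.32. The direct test called 8 of the 21 higher with mannose. Squalene epoxidase, Sqle (ENSMUSG00000022351.15, chr15:59186926-59203041, GRCm39), was at 121, 123 and 140.00 CPM on the normal diet, at 4.14, 5.93 and 6.45 CPM on the regimen alone and at 16.5, 8.09 and 20.8 CPM with mannose. Every mannose library lay above every library of the regimen alone and below every normal-diet library. The difference from the regimen alone was 1.47 ± 0.25 (adjusted p = 0.00462) and that from the normal diet -3.08 ± 0.25 (adjusted p = 1.2e-07). Hsd17b7, a sterol ketoreductase, showed the same order, with 120.2, 112 and 122, then 18.3, 19.5 and 19.9, then 35.9, 36.3 and 32.5 CPM, and a difference of 0.86 ± 0.12 from the regimen alone (adjusted p = 0.00121). The others of the 8 were Hmgcs1, Lss, Mvd, Idi1, Cyp51 and Sc5d, with log2 fold changes between 0.598 and 1.27. The count of 8 fell to 2 without mannose replicate 1 or without replicate 1 of the regimen alone, and to 4 without replicate 3 of either group.

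**Figure D2:**
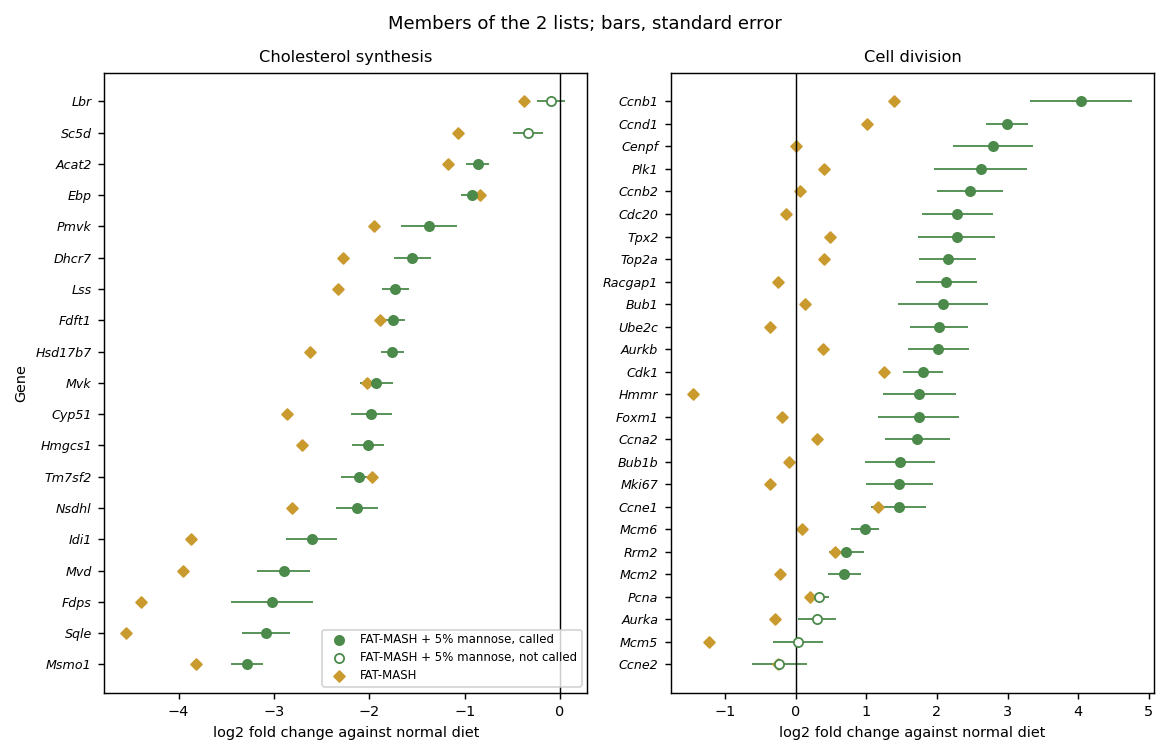
Log2 fold change against the normal diet for 19 members of the cholesterol synthesis list and the 26 of the cell division list, with FAT-MASH plus 5% mannose as green circles (filled where called, bars for the standard error) and FAT-MASH alone as ochre diamonds. The filled circles of cholesterol synthesis all lie left of 0, while in cell division 22 of 26 are filled and lie right of 0.

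Sterol enzymes are switched on by SREBP2, which binds sterol regulatory elements beside CCAAT boxes bound by NF-Y. The RefSeq promoter table (GRCm38.p6, 250 bases before to 50 after each start) holds 19 windows for 16 of 22 sterol genes searched. The letters TCACNCCAC, on either strand, occurred in 1 of these windows (5.26%) and in 408 of all 32851 windows (1.24%). CCAAT, on either strand, occurred in 15 of the 19 windows (78.9%) and in 37.4% of all windows. The window of Hmgcs1, an early synthase of the pathway, is shown because it alone held both patterns. It lies at chr13:119690101-119690400 on the plus strand, with the sterol pattern starting 137 bases before the start and both patterns in capitals (ATTGG is CCAAT read on the other strand). A match describes letters only.
Hmgcs1: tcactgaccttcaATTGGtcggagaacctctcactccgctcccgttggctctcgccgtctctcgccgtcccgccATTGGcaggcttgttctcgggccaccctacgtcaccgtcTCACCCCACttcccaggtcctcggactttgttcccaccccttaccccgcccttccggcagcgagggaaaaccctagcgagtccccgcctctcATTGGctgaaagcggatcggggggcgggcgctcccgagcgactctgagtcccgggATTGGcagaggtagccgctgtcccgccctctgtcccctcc
Hmgcs1 itself was at 764, 725 and 982 CPM on the normal diet, 131, 137 and 109.9 CPM on the regimen alone and 182, 246 and 184 CPM with mannose (-2.01 ± 0.17 against the normal diet, adjusted p = 1.31e-07). Against the regimen alone its log2 fold change was 0.695 ± 0.16 (adjusted p = 0.0281), a call that remained with a library left out only when that was mannose replicate 3.

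Among 10 genes of sterol control and uptake, 6 fell and 2 rose. Srebf2, which encodes SREBP2, was at 106, 102 and 96.2 CPM against 58.7, 48.02 and 61.9 CPM (-0.85 ± 0.11, adjusted p = 1.7e-05), and its escort Scap was at 143, 166 and 151 against 88.1, 65.7 and 95.5 CPM (-0.89 ± 0.12, adjusted p = 4.71e-05). Neither gene's groups overlapped. Insig1, which retains SREBP in the endoplasmic reticulum, and the sterol carrier gene Stard4 also fell (-1.43 and -0.84). The 2 that rose were Mylip (1.02 ± 0.203), a ubiquitin ligase, and Npc2 (0.37 ± 0.12), a lysosomal cholesterol carrier. The count of 2 was 1 without mannose replicate 1 or 3 or without normal-diet replicate 1 or 3, one library at a time.

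The list of sterol efflux genes and LXR targets ran the other way. Of 11, 5 rose, and Nr1h3, the LXR alpha receptor, fell by 0.29 on the log2 scale, a call lost with any of the 6 libraries left out. Abcg5 and Abcg8 form the pump that moves sterol into bile. Abcg5 was at 56.7, 69.6 and 46.3 CPM against 139, 265 and 173 CPM (1.74 ± 0.25, adjusted p = 6.46e-05) and Abcg8 at 75.5, 95.1 and 60.4 against 108, 202 and 156 CPM (1.01 ± 0.25, adjusted p = 0.0066). For both, mannose replicate 2 was the highest library and the groups did not overlap. Abcg1, a cellular cholesterol exporter, rose by 1.33 ± 0.28, and Soat1, which esterifies cholesterol, by 1.698 ± 0.35. The fifth, Lpcat3, rose by 0.37 ± 0.12, and was called with a library left out only when that was mannose replicate 2.

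Lipid synthesis changed in both directions. Of 24 genes, 10 rose and 6 fell, with a median of 0.59. Scd1, the desaturase that makes monounsaturated fatty acids (ENSMUSG00000037071.4, chr19:44382894-44396318, GRCm39), was at 7260, 8923 and 5002 CPM on the normal diet and 30260, 25180 and 33950 CPM with the regimen and mannose (2.08 ± 0.200, adjusted p = 7.06e-07). All mannose libraries were above all normal-diet libraries. The related Scd2 was at 10.9, 9.59 and 11.3 against 77.99, 61.5 and 67.5 CPM (2.71 ± 0.29, adjusted p = 1.93e-06), and Elovl5, which lengthens polyunsaturated fatty acids, at 415, 612 and 463 against 2271, 1804 and 2338 CPM (2.11 ± 0.21, adjusted p = 1.26e-06). Again no library of one group entered the range of the other. Fads2 and Fads1, the desaturases of polyunsaturated fatty acids, rose by 1.55 and 0.63, and Acaca, the carboxylase that commits acetyl-CoA to fat, by 0.89.

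Pnpla3, a lipid droplet enzyme under SREBP1c control, differed from both other groups. It was at 1.01, 1.46 and 0.699 CPM on the normal diet, 1.03, 2.13 and 0.958 CPM on the regimen alone and 7.89, 6.01 and 14.3 CPM with mannose. The mannose libraries were above all others, by 3.13 ± 0.36 against the normal diet (adjusted p = 6.65e-06) and by 2.79 ± 0.36 against the regimen alone (adjusted p = 0.000523). Fasn, fatty acid synthase, was at 872, 1077 and 1204 CPM on the normal diet, 413, 1035 and 606 CPM on the regimen alone and 1617, 1098 and 1935 CPM with mannose. It was not called against the normal diet (0.56 ± 0.29, adjusted p = 0.182) and was higher than on the regimen alone (1.18 ± 0.29, adjusted p = 0.0383). That second call was lost without replicate 1 or 3 of either group, with adjusted p from 0.123 to 0.165. It was also lost with the replicate block (0.0614) and with only the 2 groups fitted (0.0582). Scd2, Acly, Gpam and Fads1 were also higher with mannose than on the regimen alone (1.39, 1.08, 0.69 and 0.600), and Lpin1 and Dgat2 were lower (-1.45 and -0.47). These 2 falls numbered 0 or 1 with any library left out. Of the 6 lipid synthesis genes higher in that test, between 1 and 6 were called when a library was left out, the fewest without replicate 1 of the regimen alone.

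The 6 lipid synthesis genes that fell against the normal diet were Elovl3, Thrsp, Acss2, Dgat2, Agpat2 and Mlxipl. Mlxipl, the sugar-sensing factor ChREBP, was at 553, 537 and 683 CPM against 362, 354 and 367 CPM (-0.71 ± 0.198, adjusted p = 0.0136), and the call was lost without normal-diet replicate 3 (adjusted p = 0.0617). Its target Pklr, liver pyruvate kinase, was at 133, 175 and 143 against 252, 160.1 and 278 CPM (0.61 ± 0.21, adjusted p = 0.0408). The Pklr groups overlapped through mannose replicate 2, and the call was lost without mannose replicate 1 or 3 or normal-diet replicate 1 or 3 (adjusted p from 0.131 to 0.187). Elovl3, an elongase that is also among the male-biased genes, was at 985, 991 and 940.3 against 89.7, 112 and 126 CPM (-3.16 ± 0.44).

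**Figure D3:**
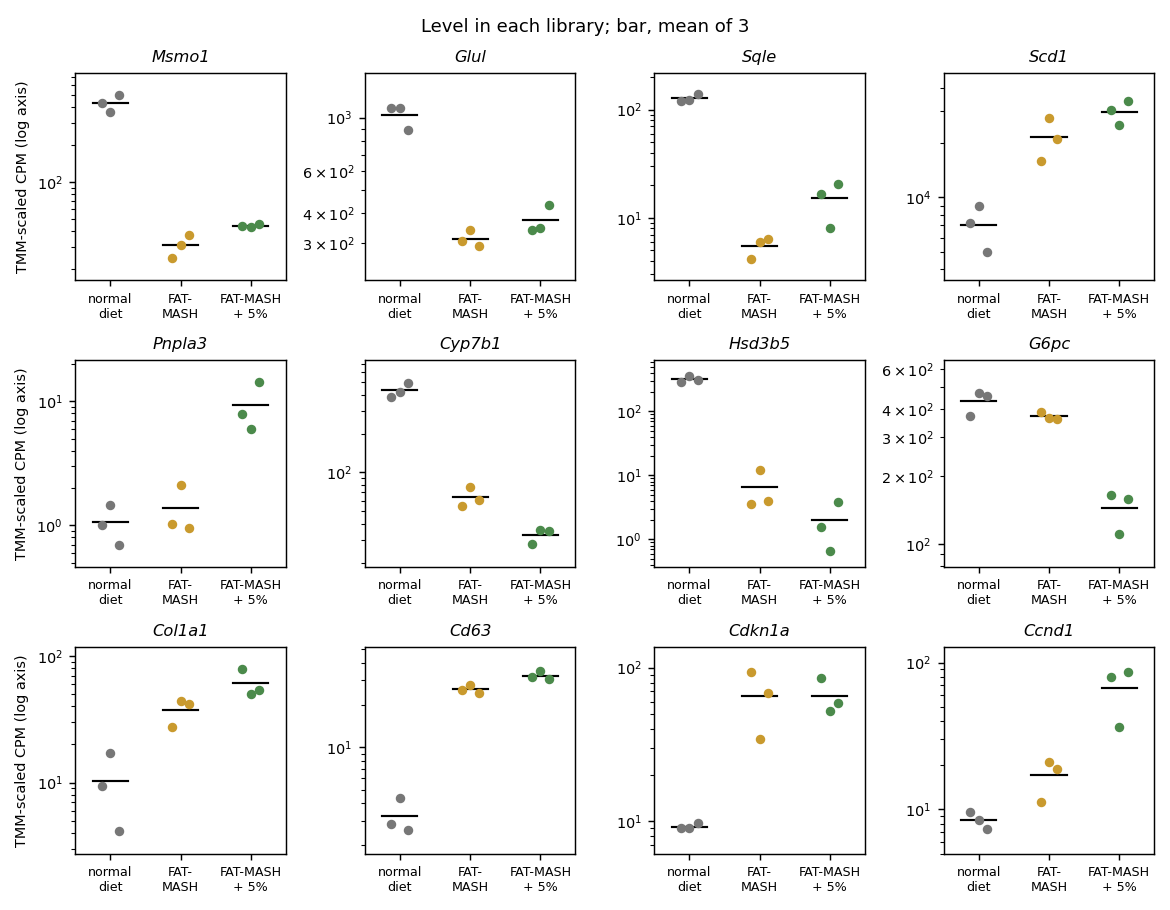
TMM-scaled CPM (log axis) of 12 genes in each library of the normal diet (grey), FAT-MASH alone (ochre) and FAT-MASH plus 5% mannose (green), with a bar at the mean of 3. In Sqle the mannose libraries lie between the other groups, in Pnpla3 and Ccnd1 they lie above both, in G6pc below both, and in Cdkn1a they lie among the libraries of FAT-MASH alone.

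Of 22 genes of lipid droplets and fat uptake, 10 rose and 3 fell. Lpl, the lipase that releases fatty acids from lipoproteins, was at 30.4, 51.04 and 30.8 CPM against 236, 467 and 194 CPM (2.997 ± 0.299, adjusted p = 1.02e-06), and Fabp2, a fatty acid carrier, at 89.7, 85.99 and 71.9 against 193, 249 and 227 CPM (1.43 ± 0.13, adjusted p = 2.86e-07). The droplet coat proteins Plin2 and Cidec rose by 0.89 ± 0.19 and 2.26 ± 0.502, and the fatty acid transporter Cd36 by 1.47 ± 0.28. The 3 that fell were Fitm1 (105, 82.3 and 46.5 against 4.73, 7.27 and 5.49 CPM, -3.75 ± 0.43), the lipase gene Lipe (-0.91 ± 0.15) and Slc27a4 (-0.43 ± 0.11), the last not called without mannose replicate 2 or normal-diet replicate 1. Among 26 genes that burn fatty acids or answer to PPAR alpha, 14 rose, with a median of 0.44. The omega-hydroxylase Cyp4a14 was at 67.04, 47.02 and 39.3 against 711, 1031 and 602 CPM (3.93 ± 0.41, adjusted p = 1.65e-06), Cyp4a10 rose by 2.26 ± 0.24 and Cyp4a31 by 3.04 ± 0.28. These 3 are paralogs of the Cyp4a family, and the counting may have split reads of its closest copies unevenly. The mitochondrial thioesterase Acot2 was at 5.97, 6.58 and 9.16 against 35.1, 29.03 and 23.99 CPM (2.03 ± 0.21, adjusted p = 1.65e-06), and Cpt1a, the gate of mitochondrial oxidation, rose by 0.83 ± 0.13. The 1 member that fell was Acaa1a (-0.38 ± 0.102, not called with library totals).

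Bile acid genes were lower than on the normal diet: 12 of 21 fell and Abcb4 rose. Cyp7b1, the hydroxylase of the alternative pathway (ENSMUSG00000039519.7, chr3:18126114-18297502, GRCm39), was at 384, 419.6 and 496 CPM against 27.8, 35.6 and 35.4 CPM (-3.72 ± 0.303, adjusted p = 1.2e-07). Cyp27a1, which opens that pathway, was at 713, 742 and 724 against 375, 346 and 389 CPM (-0.97 ± 0.14, adjusted p = 4.51e-05). Both genes' groups were far apart. Cyp7a1, the rate-limiting enzyme of the classic pathway, was at 95.4, 56.6 and 67.7 CPM on the normal diet, 67.2, 109 and 165 CPM on the regimen alone and 41.6, 29.3 and 29.6 CPM with mannose. It was the lowest in the mannose group, by -1.13 ± 0.295 against the normal diet (adjusted p = 0.00927) and -1.76 ± 0.299 against the regimen alone (adjusted p = 0.00455). Slc10a1, the importer of bile acids from blood, was at 577, 589 and 689, 531, 591 and 556 and 314, 299 and 336 CPM in the same order of groups. It was lower with mannose than on the normal diet (-0.97 ± 0.17, adjusted p = 0.000393) and than on the regimen alone (-0.82 ± 0.17, adjusted p = 0.013, 0.0649 without mannose replicate 1). Abcb4, the phospholipid exporter of the bile canaliculus, was at 274, 282 and 250.3 against 531, 453 and 519 CPM (0.897 ± 0.14, adjusted p = 0.000184). On the regimen without mannose, 3 bile acid genes were called lower and 1 higher against the normal diet. The direct test called 3 of 21 lower with mannose than on the regimen alone and 0 higher. That count of 3 was 1 without mannose replicate 1, 7 with DESeq2 and 8 with limma voom.

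Among 12 genes of fructose handling, 2 rose and 5 fell. Khk, the kinase that starts fructose breakdown, was at 447, 491 and 561 CPM on the normal diet, 809.5, 834 and 838 CPM on the regimen alone and 556, 437 and 666 CPM with mannose. The mannose libraries overlapped those of the normal diet (0.15 ± 0.17, adjusted p = 0.602) and lay below those of the regimen alone, where the difference of -0.58 ± 0.17 was not called (adjusted p = 0.0815). DESeq2 gave an adjusted p of 0.0243 for that difference and limma voom 0.0353. Of the 2 that rose, Tkfc, triokinase, was at 325, 396 and 429 against 553, 499 and 590.3 CPM (0.52 ± 0.15, adjusted p = 0.0188). It was not called without mannose replicate 1 (adjusted p = 0.0659), mannose replicate 3 or normal-diet replicate 1, and the count of 2 was 0 without mannose replicate 1. The 5 that fell were the sugar transporters Slc2a8 (-0.69 ± 0.13), Slc2a9 (-0.54 ± 0.102) and Slc2a5 (-1.02 ± 0.35), the adenylate kinase Ak3 (-0.35 ± 0.101) and Sord (-0.295 ± 0.09). Of these 5 falls, 2 remained in number without mannose replicate 1 and 3 without normal-diet replicate 1 or 2.

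Of 18 enzymes of mannose and GDP-sugar metabolism, 5 rose and 2 fell. Pmm1 was at 11.3, 7.58 and 5.42 CPM on the normal diet, 1.72, 1.56 and 1.24 CPM on the regimen alone and 3.72, 2.11 and 1.88 CPM with mannose (-1.65 ± 0.42 against the normal diet, adjusted p = 0.00816). Pmm2 was at 58.6, 64.9 and 71.96, 54.00, 54.1 and 53.1 and 49.4, 45.2 and 50.6 CPM (-0.43 ± 0.096, adjusted p = 0.00307, 0.0591 with library totals). For both phosphomannomutases the mannose libraries lay below the normal diet without overlap. Mpi, the isomerase that feeds mannose into glycolysis, was at 14.7, 13.7 and 17.1, 11.7, 8.45 and 9.33 and 13.1, 14.1 and 14.7 CPM and was not called against the normal diet (-0.12 ± 0.15, adjusted p = 0.627) or the regimen alone (0.500 ± 0.15, adjusted p = 0.0907, 0.0364 with DESeq2). The 5 that rose were Gpi1 (0.55 ± 0.12), Fpgt (0.52 ± 0.13) and the hexokinases Hk1 (0.702 ± 0.24), Hk2 (0.99 ± 0.34) and Hk3 (0.82 ± 0.28). This count was 2 or 3 with any of the 6 libraries left out. Hk1 was not called with any of them left out (adjusted p from 0.0506 to 0.216). Hk2 was called with a library left out only when that was normal-diet replicate 2, and Hk3 only when that was mannose replicate 2.

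Glucose output genes were lower. Of 14 gluconeogenesis genes, 6 fell and 1 rose, and the direct test called 4 lower with mannose than on the regimen alone. G6pc, the phosphatase that releases glucose (ENSMUSG00000078650.3, chr11:101258387-101268729, GRCm39), was at 371, 473 and 455 CPM on the normal diet, 388, 364 and 361 CPM on the regimen alone and 165, 111 and 159 CPM with mannose. The regimen alone overlapped the normal diet, and the mannose libraries were below both, by -1.58 ± 0.25 (adjusted p = 0.000179) and -1.35 ± 0.25 (adjusted p = 0.00741). Tat, which breaks down tyrosine, was at 1325, 1652 and 2063 against 691, 515 and 661 CPM (-1.43 ± 0.22, adjusted p = 0.000128), and Gpt, alanine transaminase, at 414, 363 and 422 against 189, 168 and 222 CPM (-1.05 ± 0.14, adjusted p = 3.74e-05). Neither overlapped between the groups. Pck1, the cytosolic carboxykinase, was not called against the normal diet (-0.58 ± 0.25) and was lower than on the regimen alone (-1.47 ± 0.25, adjusted p = 0.00478). Gpt (-0.68 ± 0.14) and the glucose 6-phosphate carrier Slc37a4 (-0.97 ± 0.21) were also lower in that test. The count of 4 was 2 without mannose replicate 1 or 2 or without replicate 3 of the regimen alone. Gpt was not called in any of these 3 (adjusted p from 0.0659 to 0.0733), and Slc37a4 was called with a library left out in only 1 case, replicate 2 of the regimen alone. The 1 that rose against the normal diet was Pck2, the mitochondrial carboxykinase, at 5.26, 6.22 and 5.42 against 19.3, 15.9 and 15.4 CPM (1.58 ± 0.13, adjusted p = 1.66e-07). The glycogen and pentose phosphate lists held few calls: Gbe1 rose by 0.75 ± 0.13 and Ppp1r3c fell (-0.93 ± 0.203) among 11, and Pgls (-0.37 ± 0.12) and Taldo1 (-0.29 ± 0.09) fell among 7, where 0 or 1 of the 2 falls were called with a library left out. The glycogen counts were not far from the shares over all genes tested.

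Hepatocyte genes of both zones were reduced. Of 18 pericentral genes, 11 fell and 3 rose, and of 15 periportal genes 9 fell and 2 rose. Glul, glutamine synthetase of the last row of cells around the central vein (ENSMUSG00000026473.17, chr1:153775690-153785469, GRCm39), was at 1101, 1096 and 889.5 CPM against 339.8, 348 and 434 CPM (-1.46 ± 0.19, adjusted p = 2.04e-05). Oat, which shares that zone, was at 1350, 1084 and 973 against 153, 209 and 202 CPM (-2.59 ± 0.33, adjusted p = 1.63e-05), and Slc1a2, a glutamate importer, at 136, 136 and 114 against 22.2, 39.8 and 30.9 CPM (-2.06 ± 0.25, adjusted p = 9.84e-06). In all 3 the highest mannose library was well below the lowest normal-diet library. Cyp2e1 was at 6456, 5915 and 5406 CPM on the normal diet, 5141, 4265 and 4590 CPM on the regimen alone and 2429, 3797 and 2441 CPM with mannose (-1.04 ± 0.17 against the normal diet, -0.69 ± 0.17 against the regimen alone). The second difference was called with a library left out only when that was mannose replicate 2. The 3 pericentral genes that rose were Slc1a4 (1.18 ± 0.304), Axin2 (0.68 ± 0.201) and Znrf3 (0.48 ± 0.13), the last pair being feedback regulators of Wnt signalling. Without normal-diet replicate 3, 1 of these rises was called, and Axin2 was not called without mannose replicate 1 or 3 or normal-diet replicate 1 or 2.

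On the periportal side the urea cycle enzymes Asl (732, 667 and 802 against 277, 282 and 289 CPM, -1.38 ± 0.14, adjusted p = 1.46e-06), Ass1 (-1.103 ± 0.18), Arg1 (-0.86 ± 0.14) and Cps1 (-0.76 ± 0.16) fell, as did the glutaminase Gls2 (-1.09 ± 0.17). The 2 that rose were Ctsc (0.55 ± 0.14) and Hsd17b13 (0.53 ± 0.16), and only 1 rise was called without mannose replicate 1 or 3 or normal-diet replicate 1 or 2. Of 23 genes of hepatocyte identity, 7 fell with a median of -0.30. Among them were Hpd, Serpina1a, F2, Apoa2 and Ttr, with log2 fold changes from -0.97 to -0.44, Ttr not being called without mannose replicate 1 or normal-diet replicate 3. Hpd, of tyrosine breakdown, was at 2053, 1895 and 1966 against 1058, 1034 and 1332 CPM. Albumin and Hnf4a were not called (-0.03 and -0.08).

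Genes that mark male liver had the lowest median of the 43 lists. Of 19, 15 fell, with a median of -2.03, and the regimen without mannose gave 16 falls and a median of -1.82. Hsd3b5, a steroid reductase of male mouse liver (ENSMUSG00000038092.7, chr3:98525950-98537568, GRCm39), was at 291, 356 and 313 CPM on the normal diet, 3.55, 12.1 and 3.97 CPM on the regimen alone and 1.57, 0.664 and 3.87 CPM with mannose (-7.295 ± 0.602 against the normal diet, adjusted p = 1.31e-07). Susd4, a complement regulator, was at 49.04, 47.1 and 47.5, 0.687, 1.02 and 0.845 and 0.708, 0.181 and 0.405 CPM (-6.75 ± 0.47, adjusted p = 2.14e-08). In both genes the regimen with mannose was far below the normal diet, and the difference from the regimen alone was not called (-1.66 ± 0.54 and -0.93 ± 0.49), although Hsd3b5 was without mannose replicate 3 (adjusted p = 0.0486). Cyp2d9, a steroid hydroxylase, was at 1908, 1934 and 1943, 1007, 1222 and 1036 and 346, 478 and 427 CPM. It was lower with mannose than in either other group (-2.21 ± 0.25 and -1.38 ± 0.24, adjusted p = 4.82e-06 and 0.00572). Of 23 female-biased genes, 8 rose and Cyp2c40 fell (-1.34 ± 0.47), the fall not being called without mannose replicate 1 or 2 or normal-diet replicate 3. Abcd2, a peroxisomal fatty acid transporter, was at 10.5, 7.68 and 1.96 against 35.8, 38.9 and 42.8 CPM (2.53 ± 0.33, adjusted p = 2.27e-05). Slc22a27, an organic anion transporter, was at 0.521, 0.653 and 0.524, 0.801, 0.36 and 0.845 and 2.15, 4.799 and 3.32 CPM, higher with mannose than on the normal diet (2.58 ± 0.37) and than on the regimen alone (2.34 ± 0.36, adjusted p = 0.00213, 0.0566 with all 25 libraries and a batch term). Sex-biased liver genes follow the pattern of growth hormone, and among its 13 signalling genes Igfals (-1.92 ± 0.21), Ghr (-0.73 ± 0.11) and Igf1 (-0.58 ± 0.15) fell while Igfbp3 (0.81 ± 0.22), Igfbp2 (0.73 ± 0.23) and Socs3 (1.28 ± 0.35) rose. The 3 rises numbered 1 without mannose replicate 3 or normal-diet replicate 2 or 3. The Igf1 call was lost without mannose replicate 1 (adjusted p = 0.0581) or normal-diet replicate 3 (adjusted p = 0.0529).

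Of 34 xenobiotic cytochromes and their regulators, 16 fell and 2 rose. Cyp2c29 was at 2165, 1879 and 1735 CPM against 272, 463 and 356 CPM (-2.41 ± 0.23, adjusted p = 7.06e-07), and Cyp2c50 at 1295, 1124 and 1266 against 156, 242 and 192 CPM (-2.64 ± 0.23, adjusted p = 1.69e-07). Their regulator Nr1i3, the receptor CAR, was at 27.7, 23.4 and 20.3 against 8.02, 10.3 and 7.14 CPM (-1.49 ± 0.21, adjusted p = 5.76e-05), and was also lower than on the regimen alone (-1.04 ± 0.21, adjusted p = 0.013, lost without replicate 1 of the regimen alone or mannose replicate 1 or 3). The 2 that rose were Cyp2a4, at 6.14, 2.98 and 1.78 against 66.9, 228 and 35.3 CPM (4.899 ± 0.77), and Cyp2a22 (1.73 ± 0.32). Members of the Cyp2a and Cyp2c families are near-identical copies, so reads may have been split between them. Mannose replicate 2 stood apart here: Cyp2a5 was at 97.9, 492 and 103 CPM, Gstm1 at 2858, 6765 and 2600, Nqo1 at 12.5, 29.2 and 8.64 and Gsta1 at 11.3, 43.5 and 11.7 CPM, each highest in replicate 2. Of 23 genes of the NRF2 and glutathione list, Nfe2l2 (1.096 ± 0.14), Gstm3 (1.61 ± 0.33), Slc7a11 (3.22 ± 0.97) and Hmox1 (0.74 ± 0.25) rose, and Gstp1 (-1.500 ± 0.28) and Gstt1 (-0.41 ± 0.13) fell. The 4 rises numbered 2 without mannose replicate 2 or normal-diet replicate 2 or 3, and the 2 falls numbered 1 without mannose replicate 1 or 3 or normal-diet replicate 1 or 3. Hmox1 was not called with any of the 6 libraries left out (adjusted p from 0.0591 to 0.116). Slc7a11 was not called by limma voom (adjusted p = 0.326). Without mannose replicate 2 the list's median turned from 0.28 to -0.04. Its counts of rises and falls were not far from the shares over all genes tested (12.3% higher and 10.1% lower).

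Matrix genes of scar tissue were higher than on the normal diet in 24 of 28 cases, with a median of 1.66. Col1a1, the main fibrillar collagen (ENSMUSG00000001506.11, chr11:94827050-94843868, GRCm39), was at 9.397, 17.3 and 4.13 CPM on the normal diet, 27.4, 44.4 and 41.6 CPM on the regimen alone and 78.4, 50.3 and 53.9 CPM with mannose (2.56 ± 0.56 against the normal diet, adjusted p = 0.00276). All mannose libraries were above all normal-diet libraries and above all libraries of the regimen alone, although that second difference was not called (0.69 ± 0.52, adjusted p = 0.589). Col5a2, which sits in the same fibrils, was at 1.86, 4.44 and 2.03 against 19.7, 12.7 and 15.96 CPM (2.52 ± 0.39, adjusted p = 0.000137). The small proteoglycans Lum and Dcn, which space collagen fibrils, rose by 2.199 ± 0.38 and 0.97 ± 0.17, and tenascin C, Tnc, by 2.56 ± 0.45. On the regimen alone 16 of 28 were called higher, with a median of 1.28. In the direct test 0 of 28 were called by edgeR, DESeq2 or limma voom, and at an unadjusted p under 0.05 edgeR gave 1 higher and 1 lower.

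Among 18 genes of the basement membrane 9 rose, and the collagen gene Col18a1 (-0.55 ± 0.15) and the laminin chain gene Lama3 (-2.08 ± 0.42) fell. Col18a1 was not called without mannose replicate 2 (adjusted p = 0.0575). Nid1, which links laminin to collagen, was at 14.6, 12.2 and 10.6 against 46.4, 34.8 and 43.6 CPM (1.74 ± 0.195, adjusted p = 4.2e-06). The count of 9 was 5 without mannose replicate 1 or without normal-diet replicate 3. Of 20 matrix proteases and inhibitors, 12 rose and Mmp19 fell (-0.66 ± 0.18), the fall not being called without mannose replicate 1 or normal-diet replicate 1. Timp1, an inhibitor of matrix proteases, was at 0.164, 0.314 and 0.21 CPM on the normal diet, 1.53, 2.82 and 3.099 CPM on the regimen alone and 5.18, 3.56 and 3.82 CPM with mannose (4.16 ± 0.71, adjusted p = 0.00035). Its groups did not overlap. Adamts1 was the 1 member higher with mannose than on the regimen alone, at 13.5, 13.1 and 12.1 against 30.2, 18.7 and 29.5 CPM (1.02 ± 0.196, adjusted p = 0.00915, 0.0623 without mannose replicate 1).

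Of 25 stellate cell and myofibroblast markers, 11 rose and 2 fell. Pdgfra was at 6.41, 6.58 and 5.94 against 20.2, 20.3 and 13.3 CPM (1.502 ± 0.24, adjusted p = 0.000196), and the growth factors Tgfb3 and Tgfb2 rose by 2.17 ± 0.43 and 1.74 ± 0.35. Acta2, smooth-muscle actin, was at 5.53, 14.03 and 3.78 CPM on the normal diet and 11.5, 2.96 and 5.96 CPM with mannose (-0.19 ± 0.51, adjusted p = 0.837), with normal-diet replicate 2 the highest library. Without that replicate its value was 0.53, still not called. The 2 that fell were Tpm2 (-1.19 ± 0.25), a tropomyosin, and Ecm1 (-0.63 ± 0.13), a matrix protein.

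Macrophage genes formed another large group. Of 20 genes of lipid-associated and recruited macrophages, 16 rose, with a median of 1.78. Cd63, a lysosomal membrane protein (ENSMUSG00000025351.15, chr10:128736858-128748691, GRCm39), was at 2.85, 4.34 and 2.59 against 31.5, 35.1 and 30.6 CPM (3.303 ± 0.297, adjusted p = 2.97e-07). Clec7a, a receptor for fungal glucans, was at 5.096, 7.13 and 4.16 against 40.7, 56.95 and 34.2 CPM (2.998 ± 0.43, adjusted p = 6.29e-05). Trem2, the lipid-sensing receptor of these cells, was at 0.657, 3.34 and 0 against 15.6, 16.1 and 14.9 CPM (3.48 ± 0.703, adjusted p = 0.00145). None of the 3 overlapped, and normal-diet replicate 2 was the highest of its group in each. That library stood further apart in Gpnmb, at 0.164, 42.5 and 0.14 CPM against 41.2, 62.5 and 41.5 CPM (1.75 ± 1.06, adjusted p = 0.266), and in Mmp12, at 0.219, 20.95 and 0.42 against 28.3, 42.8 and 23.6 CPM (2.104 ± 0.89, adjusted p = 0.101). Without normal-diet replicate 2 both were called (adjusted p = 0.000127 for Gpnmb and 5.58e-05 for Mmp12). In the direct test against the regimen alone 0 of 20 were called by edgeR, with 4 higher at an unadjusted p under 0.05, while DESeq2 and limma voom each called 1.

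Resident Kupffer cell markers rose in 8 of 16 cases, and Nr1h3 fell. C1qb, a complement chain, was at 40.4, 34.9 and 44.2 against 104, 98.2 and 119 CPM (1.43 ± 0.29, adjusted p = 0.0017), Cd5l at 69.9, 50.6 and 66.7 against 176, 213 and 228 CPM (1.72 ± 0.38, adjusted p = 0.00259) and Adgre1, F4/80, at 9.23, 7.16 and 6.71 against 28.4, 20.7 and 30.9 CPM (1.79 ± 0.400, adjusted p = 0.00313). All mannose libraries exceeded all normal-diet libraries in these 3. Scavenger and engulfment receptors differed between the mannose mice themselves. Cd163 was at 0.657, 7.97 and 7.52 CPM, Vsig4 at 6.63, 52.1 and 43.8, Marco at 1.06, 9.96 and 18.1 and Timd4 at 0.708, 6.82 and 5.26 CPM, so that replicate 1 was far below the other two in each, and none was called. Without that replicate Vsig4 was called higher (adjusted p = 0.0451), and limma voom, which weights libraries by quality, called Cd163 lower (0.0228). In normal-diet libraries these genes ranged from 3.47 CPM (Marco) to 26.1 CPM (Vsig4). These 4 genes were picked after their values were seen.

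**Figure D4:**
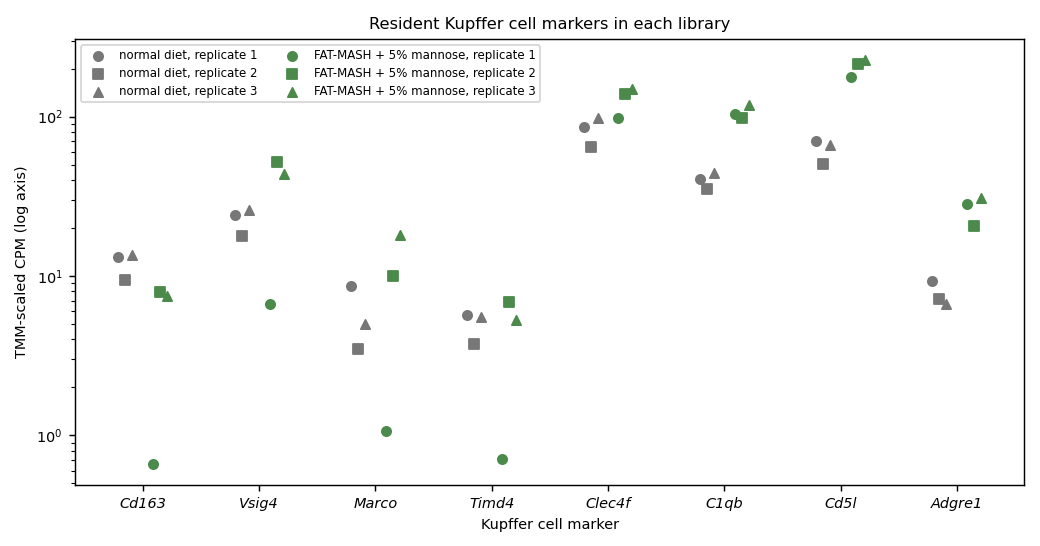
TMM-scaled CPM (log axis) of 8 resident Kupffer cell markers in each normal-diet library (grey) and each library of FAT-MASH with 5% mannose (green), with a symbol per replicate. Replicate 1 of the mannose group lies far below replicates 2 and 3 in Cd163, Vsig4, Marco and Timd4 but near them in C1qb and Cd5l.

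Inflammatory genes were also higher. Of 25 genes of inflammatory signalling 14 rose, of 21 chemokines 11 rose and 2 fell, and of 21 interferon and MHC class II genes 13 rose. Il1rn, the interleukin 1 antagonist, was at 1.32, 1.02 and 2.17 against 16.6, 10.1 and 9.14 CPM (3.02 ± 0.38, adjusted p = 1.63e-05), Tnfaip3, a brake on NF-kappaB, at 3.01, 2.64 and 2.13 against 15.1, 11.3 and 11.01 CPM (2.26 ± 0.31, adjusted p = 3.51e-05), and the adhesion molecule Icam1 at 7.53, 5.93 and 6.82 against 23.7, 16.4 and 21.2 CPM (1.596 ± 0.22, adjusted p = 3.51e-05). No library of these genes fell in the range of the other group. The monocyte attractant Ccl2 was at 0.493, 0.627 and 0.524 against 6.02, 2.05 and 3.76 CPM (2.84 ± 0.53, adjusted p = 0.000773), Ccl6 rose by 2.15 ± 0.396 and Cxcl16 by 1.35 ± 0.27. The chemokines that fell were Cxcl12 (-0.56 ± 0.12) and Cxcl11 (-0.93 ± 0.296), and 1 of these falls was called without any one library other than normal-diet replicate 1. Oas1a, an antiviral synthetase, was at 1.78, 2.72 and 2.13 against 10.5, 6.31 and 11.8 CPM (2.11 ± 0.29, adjusted p = 3.88e-05), Oasl2 rose by 1.69 ± 0.23 and Ifit2 by 1.56 ± 0.27. The interferon count of 13 was 8 without mannose replicate 3 or normal-diet replicate 2.

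Other cell types gave fewer calls. Among 7 neutrophil genes tested, S100a9 (2.69, 1.93 and 1.54 against 7.26, 7.79 and 9.19 CPM, 1.97 ± 0.296, adjusted p = 9.92e-05), S100a8 (2.41 ± 0.38), Cxcr2 (1.88 ± 0.65) and Camp rose. Camp had no read in any normal-diet library and was at 0, 0.664 and 1.13 CPM in the mannose group. Its group mean rose at least 7.56-fold when the normal diet is set at 3 reads in each library. Mannose replicate 1 had no read either. The Camp call was lost with limma voom (adjusted p = 0.334). It was also lost without mannose replicate 3 or any normal-diet replicate (adjusted p from 0.0521 to 0.0565). The count of 4 was 2 without normal-diet replicate 1 or 3. Cxcr2 was not called without mannose replicate 1 or 2 or normal-diet replicate 1 or 3 (adjusted p from 0.0803 to 0.158). Its call was also lost with limma voom (0.0736), with only the 2 groups fitted (0.0661) and with all 25 libraries and a batch term (0.165). Of 15 T, B and NK cell genes, Cd8a rose (1.68 ± 0.56, lost without mannose replicate 1 or 3 or normal-diet replicate 2 or 3) and Cd4 fell, from 3.699, 2.98 and 3.78 to 0.809, 0.211 and 1.503 CPM (-2.04 ± 0.54, adjusted p = 0.01). Of 18 sinusoidal endothelial genes, Cd34 (1.57 ± 0.38), Fcgr2b (0.497 ± 0.14) and Lyve1 (0.81 ± 0.27) rose, a count not far from the share over all genes tested (12.3% higher). With a library left out 1 or 2 of the 3 were called. Lyve1 was not called with any of the 6 libraries left out (adjusted p from 0.0538 to 0.143) or by limma voom (0.0579). Of 9 red cell genes, 1 rose and Alas2 fell (-0.67 ± 0.17). Of 16 markers of bile duct cells and the ductular reaction, 7 rose, with a median of 1.13. The duct adhesion molecule Epcam was at 1.37, 1.57 and 0.909 CPM on the normal diet, 2.86, 2.697 and 4.17 CPM on the regimen alone and 9.58, 9.24 and 6.71 CPM with mannose (2.71 ± 0.51, adjusted p = 0.000777). Spp1, osteopontin, which macrophages also make, was at 37.4, 62.95 and 46.7, 79.2, 74.5 and 94.7 and 237, 241 and 142 CPM (2.08 ± 0.44, adjusted p = 0.00191). In both, the mannose libraries were above all others. The chloride channel Cftr was at 0.0548, 0.0522 and 0 against 2.12, 1.81 and 0.52 CPM (5.18 ± 0.94). The regimen alone gave 1 call higher in this list, and the direct test called Krt8 (0.65 ± 0.15) and Sox9 (0.76 ± 0.197) higher with mannose. These 2 calls numbered 0 without mannose replicate 1 or 3 or without replicate 1 or 2 of the regimen alone.

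Of the 43 lists, cell division had the highest median difference between the regimen with and without mannose, 1.77. Of 26, 22 rose against the normal diet, with a median of 1.77. The regimen alone gave 2 higher, 1 lower and a median of 0.08 against the same libraries. The direct test called 12 of 26 higher with mannose. Ccnd1, cyclin D1 (ENSMUSG00000070348.6, chr7:144483668-144493662, GRCm39), was at 9.64, 8.41 and 7.34 CPM on the normal diet, 11.2, 21.2 and 18.96 CPM on the regimen alone and 79.3, 36.5 and 86.95 CPM with mannose. The 3 groups did not overlap, and the mannose group was higher by 2.99 ± 0.299 (adjusted p = 1.02e-06) and 1.99 ± 0.28 (adjusted p = 0.00121). The mitotic cyclin gene Ccnb2 was at 0.74, 0.575 and 0.664, 0.782, 0.539 and 0.733 and 3.49, 3.65 and 3.87 CPM (2.47 ± 0.47 and 2.41 ± 0.46, adjusted p = 0.000816 and 0.00899). Top2a, the topoisomerase of dividing cells, was at 2.25, 1.18 and 1.05, 0.992, 2.04 and 2.99 and 5.59, 6.49 and 7.92 CPM (2.15 ± 0.398 and 1.75 ± 0.39, adjusted p = 0.000689 and 0.0211). Its mannose libraries too were above all others. Its call against the regimen alone was lost without replicate 1 or 2 of that group or mannose replicate 3 (adjusted p from 0.0638 to 0.107). In that comparison limma voom called neither Top2a (adjusted p = 0.0616) nor Ccnb2 (0.131). Cdk1 was at 1.64, 2.09 and 1.399, 4.28, 3.66 and 4.28 and 5.69, 5.16 and 7.17 CPM, with a rise against the normal diet (1.802 ± 0.28, adjusted p = 0.000134) and no call against the regimen alone (0.56 ± 0.26, adjusted p = 0.318).

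Mki67, the classic proliferation marker, was at 6.27, 2.51 and 1.96 CPM on the normal diet, 1.64, 3.72 and 3.21 CPM on the regimen alone and 12.97, 6.34 and 10.5 CPM with mannose. Normal-diet replicate 1 nearly reached mannose replicate 2. The rise of 1.46 ± 0.48 against the normal diet was called (adjusted p = 0.0323) but lost without mannose replicate 1 or 3 or normal-diet replicate 2 or 3 (adjusted p from 0.0672 to 0.139). Against the regimen alone it was 1.83 ± 0.48 (adjusted p = 0.0532). The list's count of 22 was 13 without mannose replicate 1 or without normal-diet replicate 2, and its count of 12 in the direct test was 5 without replicate 1 and 6 without replicate 2 of the regimen alone, 6 without mannose replicate 3, 19 with DESeq2 and 3 with limma voom. Mannose replicate 2 was lower than the other two in Ccnd1, in Mki67 and in the kinase gene Plk1, which was at 2.78, 0.211 and 2.14 CPM.

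p53 targets were higher in 14 of 20 cases, with a median of 0.93. Cdkn1a, the cell cycle inhibitor p21 (ENSMUSG00000023067.15, chr17:29309950-29319701, GRCm39), was at 9.01, 8.99 and 9.69 CPM on the normal diet, 93.3, 34.4 and 68.5 CPM on the regimen alone and 85.2, 51.9 and 58.9 CPM with mannose (2.82 ± 0.36 against the normal diet, adjusted p = 1.66e-05). The libraries of the regimen with and without mannose overlapped. Eda2r, a death receptor induced by p53, was at 0.384, 0.157 and 0.14 against 12.97, 12.1 and 7.86 CPM (5.55 ± 0.43, adjusted p = 7.32e-08), and Phlda3 at 2.03, 0.993 and 1.47 against 20.1, 12.3 and 8.47 CPM (3.19 ± 0.44, adjusted p = 3.88e-05). Ddit4l, an inhibitor of mTOR signalling, was at 0.822, 1.05 and 1.29, 2.27, 2.34 and 3.803 and 9.23, 9.12 and 6.01 CPM and was the 1 member higher with mannose than on the regimen alone (1.54 ± 0.28, adjusted p = 0.00691).

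Of 16 imprinted and oncofetal genes, 10 rose and Meg3 fell (-1.48 ± 0.48, lost without mannose replicate 1 or normal-diet replicate 1 or 3). Ly6d was at 2.58, 1.67 and 1.26 against 106, 70.3 and 83.97 CPM (5.54 ± 0.39, adjusted p = 2.51e-08), and the membrane-binding annexins Anxa2 and Anxa5 rose by 2.36 ± 0.27 and 1.59 ± 0.16. Peg10, an imprinted gene of retroviral origin, was at 1.32, 1.62 and 1.82, 3.47, 2.94 and 2.54 and 10.8, 11.5 and 11.04 CPM, with 3 groups that did not overlap (2.81 ± 0.24 and 1.89 ± 0.22, adjusted p = 1.57e-07 and 0.000236). The imprinted RNA H19 (ENSMUSG00000000031.18, chr7:142129262-142131886, GRCm39) took the opposite course to Peg10 between the regimen groups. It was at 0, 0.209 and 0.14 CPM on the normal diet, 4.33, 28.3 and 40.1 CPM on the regimen alone and 1.92, 1.06 and 0.809 CPM with mannose. It was lower with mannose than on the regimen alone (-4.25 ± 0.95, adjusted p = 0.0229) and not called against the normal diet (3.42 ± 1.28, adjusted p = 0.0626), although all mannose libraries were above all normal-diet libraries. DESeq2 called H19 higher than on the normal diet (adjusted p = 0.0207), as did edgeR with library totals (0.0488) or with only the 2 groups fitted (0.0108). The call against the regimen alone was lost with limma voom (adjusted p = 0.0848). It was also lost without any single library except replicate 1 of the regimen alone, with adjusted p from 0.0541 to 0.0831.

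Stress genes were mixed. Of 18 genes of the integrated stress response, 11 rose and 3 fell. Fgf21, a secreted hormone of liver stress and sugar intake (ENSMUSG00000030827.6, chr7:45263310-45264914, GRCm39), was at 0.11, 0.993 and 0.42 CPM on the normal diet, 23.1, 11.5 and 4.71 CPM on the regimen alone and 27.9, 27.95 and 14.1 CPM with mannose (5.48 ± 0.68 against the normal diet, adjusted p = 1.31e-05). All 3 mannose libraries lay far above the normal diet. Psat1, of serine synthesis, was at 0.877, 0.731 and 0.979 against 7.74, 4.59 and 5.38 CPM (2.78 ± 0.36, adjusted p = 2.29e-05). The 3 that fell were Atf4 (-0.85 ± 0.18), a central factor of the response, Asns (-2.03 ± 0.51) and Shmt2 (-0.79 ± 0.11), with Asns not called without normal-diet replicate 2 (adjusted p = 0.0717). Gdf15, a stress hormone, was at 18.5, 24.7 and 11.96 against 40.1, 29.1 and 20.8 CPM (0.71 ± 0.25, adjusted p = 0.0462), with overlap between the groups and a call lost without mannose replicate 1 or 2 or normal-diet replicate 1 or 3. Of 20 chaperones and genes of the unfolded protein response, 6 fell and Atf6 rose (0.36 ± 0.11), the latter not called without mannose replicate 1 or 3 or normal-diet replicate 2 or 3 (adjusted p from 0.064 to 0.129). Calr, calreticulin, was at 917, 986 and 1055 against 525, 594 and 700.3 CPM (-0.701 ± 0.11, adjusted p = 0.00014). The regimen alone gave 13 falls here against the normal diet, and the direct test called Sdf2l1 higher with mannose (0.65 ± 0.17, adjusted p = 0.0448), a call lost without replicate 1 or 2 of the regimen alone or mannose replicate 2 or 3 (adjusted p from 0.114 to 0.181). The count of 6 was 3 without mannose replicate 1 or normal-diet replicate 2, and 2 when libraries were scaled by their totals.

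Among 24 acute phase genes, 4 rose and 6 fell. Lcn2, a siderophore-binding protein, was at 1.43, 1.52 and 3.15 against 55.5, 30.00 and 38.5 CPM (4.38 ± 0.599, adjusted p = 3.76e-05), and Saa3, made largely outside hepatocytes, at 5.18, 4.83 and 7.27 against 80.7, 88.1 and 74.4 CPM (3.82 ± 0.47, adjusted p = 1.24e-05). Cp (0.47 ± 0.100) and Steap4 (0.88 ± 0.204) were the others that rose. Saa4, a constitutive hepatocyte protein, was at 348, 349.5 and 419.7 CPM on the normal diet, 334, 238 and 334 CPM on the regimen alone and 143, 173 and 147 CPM with mannose. It was lower with mannose than in both other groups (-1.27 ± 0.15 and -0.97 ± 0.15, adjusted p = 8.1e-06 and 0.00222), and Itih3 showed the same (-0.698 ± 0.12 and -0.79 ± 0.12). The count of 6 was 3 without mannose replicate 1 or 2. The Saa genes are related in sequence, and reads of the closest copies may have been shared between them.

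Of 15 iron genes, 3 rose and 4 fell. Tfr2, the iron sensor of hepatocytes, was at 536, 535 and 518 against 329.6, 312 and 342 CPM (-0.69 ± 0.09, adjusted p = 2.34e-05), and Hamp, hepcidin, at 696, 473 and 449.9 against 304, 360.2 and 325 CPM (-0.71 ± 0.24, adjusted p = 0.0388). Bmp6 (-0.81 ± 0.26) and Tmprss6 (-0.46 ± 0.11) also fell. The 4 falls numbered 2 without mannose replicate 3 or normal-diet replicate 1, and Hamp was called with a library left out only when that was normal-diet replicate 2 or 3. Id1, a target of BMP signalling, was at 5.86, 4.81 and 6.08, 9.73, 16.1 and 10.3 and 29.03, 23.96 and 25.3 CPM, above the normal diet (2.23 ± 0.26, adjusted p = 8.44e-06) and the regimen alone (1.12 ± 0.25, adjusted p = 0.0241). The second call was lost without replicate 1 or 3 of the regimen alone or mannose replicate 1 (adjusted p from 0.0874 to 0.121). Hamp2, a near-identical copy of Hamp, rose by 2.46 ± 0.49. Of 8 metal genes, Slc39a5 (1.81 ± 0.49), Slc39a4 (0.55 ± 0.15), Slc39a8 (0.38 ± 0.11) and Mt1 (1.32 ± 0.41) rose and Slc30a10 fell (-0.75 ± 0.22). Of the 4 rises, 1 was called without mannose replicate 1 or normal-diet replicate 2 or 3, and the fall was lost without mannose replicate 1 or 2 or normal-diet replicate 3. Of 18 clock genes, Nr1d2 (1.05 ± 0.17), Dbp (2.79 ± 0.84) and Bhlhe40 (0.88 ± 0.28) rose, and 3 fell, among them Hlf (-0.74 ± 0.16) and Nfil3 (-1.03 ± 0.25). Both clock counts were not far from the shares over all genes tested (12.3% higher and 10.1% lower). The 3 rises numbered 1 without mannose replicate 2 or normal-diet replicate 2 or 3. Bhlhe40 was not called with any of the 6 libraries left out (adjusted p from 0.0501 to 0.101) or by DESeq2 (0.0534). Dbp was not called by limma voom (adjusted p = 0.166). The hour of tissue collection is not given in the labels used here.

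Among genes whose groups did not overlap and whose mean over the 6 libraries was at least 5 CPM, the largest rise was that of Rad51b, a DNA repair gene (ENSMUSG00000059060.16, chr12:79344056-79861464, GRCm39), at 0.575, 0.575 and 0.559 against 40.9, 50.7 and 35.2 CPM (6.203 ± 0.28, adjusted p = 3.94e-11). Apoa4, a lipoprotein component that rises in fatty liver, was at 17.3, 17.6 and 21.2 against 712, 299.6 and 621 CPM (4.87 ± 0.304, adjusted p = 4.22e-09), and Nrg1, a growth factor of the EGF family, at 0.301, 0.496 and 0.35 against 16.8, 7.18 and 8.56 CPM (4.81 ± 0.49, adjusted p = 1.17e-06). The solute carrier gene Slc35f2 rose by 4.67 ± 0.199 and Fam83a by 5.46 ± 0.48. Eda2r, Ly6d, Fgf21, Cyp2a4 and Lcn2, described above, complete the 10. Of these 10 genes, the regimen alone had log2 fold changes against the normal diet from 2.79 (Cyp2a4) to 5.67 (Rad51b), and none was called between the regimen with and without mannose, where their values ran from -0.05 (Slc35f2) to 2.104 (Cyp2a4).

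The largest falls were led by Capn8, a calpain protease, at 12.1, 10.6 and 9.58 against 0, 0.0604 and 0 CPM (-8.95 ± 1.204, adjusted p = 3.17e-05), then Hsd3b5 and Susd4. Serpina1e, one of the near-identical alpha-1-antitrypsin copies of the mouse, was at 11040, 14460 and 10670 against 134, 34.9 and 378 CPM (-6.05 ± 0.75, adjusted p = 1.4e-05), and Slc13a2, a carrier of dicarboxylates and citrate, at 12.5, 7.16 and 13.2 against 0.202, 0.181 and 0.463 CPM (-5.27 ± 0.73, adjusted p = 3.96e-05). The others of the 10 were Lrtm1 (-4.81 ± 0.800), Dct (-4.27 ± 0.65), Clec2h (-4.23 ± 0.54), Selenbp2 (-4.22 ± 0.499) and Srgap3 (-4.03 ± 0.46). Lrtm1 was the 1 of these that was also called against the regimen alone, at 1.22, 2.82 and 11.2 against 0.303, 0.785 and 0.636 CPM (-3.15 ± 0.77, adjusted p = 0.0368). That call was lost without any mannose replicate and without replicate 3 of the regimen alone.

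Genes with the largest differences between the regimen with and without mannose fell on either side of the normal diet. Rgs16, a regulator of G protein signalling, was at 0.767, 3.42 and 0.245 CPM on the normal diet, 179.8, 74.3 and 108 CPM on the regimen alone and 16.8, 10.02 and 25.03 CPM with mannose. It was lower with mannose than on the regimen alone (-2.81 ± 0.501, adjusted p = 0.00588) and higher than on the normal diet (3.48 ± 0.58, adjusted p = 0.000266). Arl4d, a small GTPase, was at 32.4, 47.3 and 42.9, 95.4, 35.9 and 65.3 and 13.4, 11.2 and 13.7 CPM. It was lowest with mannose, by -1.68 ± 0.25 against the normal diet and by -2.36 ± 0.26 against the regimen alone. Tsc22d3, a target of glucocorticoids, was at 73.1, 89.2 and 108, 244, 71.9 and 194 and 45.7, 50.1 and 43.3 CPM, lower than on the regimen alone (-1.88 ± 0.35, adjusted p = 0.00751) and not called against the normal diet (-0.96 ± 0.34, adjusted p = 0.0513, 0.0482 without normal-diet replicate 1). Against the normal diet, Tsc22d3 was called lower with RLE scaling (adjusted p = 0.0486) and with the replicate block (0.0487). The same held with all 25 libraries and a batch term (0.0311) and with only the 2 groups fitted (0.000677). Orm3, an acute phase glycoprotein, was at 1.81, 1.52 and 3.43, 11.3, 8.36 and 10.1 and 2.93, 2.596 and 1.65 CPM, and its mannose libraries overlapped the normal diet.

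On the rising side, Mybl1, a transcription factor of the MYB family, was at 0.877, 0.94 and 0.42 CPM on the normal diet, 2.86, 2.76 and 2.73 CPM on the regimen alone and 11.1, 10.3 and 8.38 CPM with mannose. It was called in both comparisons (3.702 ± 0.301 and 1.83 ± 0.26, adjusted p = 1.2e-07 and 0.00126). Phlda1, of cell survival, was at 112, 24.4 and 31.2, 21.7, 24.00 and 19.02 and 101.4, 83.2 and 96.4 CPM and overlapped the normal diet through normal-diet replicate 1. Without that replicate it was called against the normal diet (adjusted p = 0.00654). Chrna4, a nicotinic receptor subunit, was at 4.38, 9.27 and 25.4, 0.992, 6.26 and 1.72 and 18.6, 8.06 and 30.7 CPM and also overlapped the normal diet. Both were higher than on the regimen alone (2.12 ± 0.48 and 2.71 ± 0.65, adjusted p = 0.0256 and 0.0344), calls that were lost with most single libraries left out.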

How the data were processed

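Poly-A RNA of whole mouse liver was sequenced. The authors deposited whole-number counts per gene for 25 libraries: reads were aligned with STAR to GRCm39, per the submitters' processing notes, and counted with featureCounts against GENCODE mouse release 31, with no strand option in the command, per the file headers (version 2.0.1 there and 2.0.6 in the notes). Reads of a gene and of its antisense partner therefore cannot be told apart. Gene symbols were matched for 52073 of 56980 identifiers. Genes were filtered with filterByExpr (19571 kept), scaled by TMM and tested with edgeR 4.0.16 (quasi-likelihood, R 4.3.3) on the 18 libraries of the first batch, with group as the only term. On simulated counts for 18535 genes with 200 changed, the steps recovered 52% of changes of 1 and 100% of changes of 2 on the log2 scale, with 8 false calls. The simulation gave every gene the same spread and changed only genes with ample reads. These rates describe that setting only and were not measured for noisier genes or for changes in rarer genes. Replicates are separate libraries as far as the labels say, and pairwise counts differed beyond sampling noise in each group.

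Alternatives were DESeq2 1.42.0, limma voom (limma 3.58.1), RLE scaling, library totals, no filter, 6 libraries alone, all 25 libraries with a batch term, a replicate block and each library left out. Named genes were a fixed list of key genes, the 10 largest rises and falls against the normal diet and the 6 against FAT-MASH alone (called, at least 5 CPM, no overlap, excluding predicted genes, pseudogenes or Mup genes), up to 4 members of a list by smallest p, and all members of counts up to 5. Some genes that the rule names or that list counts include are not reported here. Further members are named from their lists after their values were seen. The groups, gene lists and key genes were chosen with earlier results of these data known, so list counts are descriptions, without a test of the list. A gene without reads in a group was set at 3 reads in each of its libraries for a fold bound, and such bounds hold for counting error alone.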

Additional observations from a re-analysis of the deposited data

How the results depend on the processing

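Against the normal diet, the number of called genes stayed between 3927 and 5084 over the alternatives that kept all libraries, and between 3121 and 4034 with 1 library left out (1640 to 2115 higher and 1462 to 1919 lower), fewest without mannose replicate 1. Scaling by library totals moved the median of all genes from 0.01 to 0.19 and gave 3861 genes higher and 1109 lower, so that 77.7% of calls were higher in place of 54.8%. Against FAT-MASH alone the calls depended more on the setting: 940 genes with DESeq2 (434 higher, 506 lower), 676 with limma voom (432 lower), 1254 without a filter (612 higher, 642 lower), and 393 higher and 154 lower with library totals (71.8% higher in place of 42.5%). With 1 library left out 127 to 344 were called (57 to 176 higher, 63 to 188 lower), 127 without mannose replicate 1 and 154 without replicate 1 of FAT-MASH alone.

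Replicate numbers are shared by the groups. Deviations from the group mean showed little correlation across genes in same-numbered libraries of the normal diet and the mannose group (r = 0.001, -0.008 and 0.067). For differently numbered libraries r ran from -0.081 to 0.093. Between FAT-MASH alone and the mannose group the same-numbered values were -0.11, -0.103 and 0.031. With 3 libraries per group such values cannot exclude shared handling, and the labels name no pairing. With the replicate block 4165 genes were called against the normal diet and 376 against FAT-MASH alone. Directions that turned were all of values that were not called: with 1 library left out the red cell median ran from -0.25 (without mannose replicate 1) to 0.27, the NRF2 median from -0.04 (without mannose replicate 2) to 0.31, Khk from -0.022 to 0.29, Acta2 from -0.829 to 0.534, Orm3 from -0.136 to 0.512, Marco from -0.08 to 1.279 and Timd4 from -0.755 to 0.255. With library totals Mpi was 0.056, Alb 0.147, Hnf4a 0.1, Lbr 0.088 and Slc35f2 against FAT-MASH alone 0.058, and with limma voom Marco was -0.57 and Vsig4 -0.377. The cause was not tested. Of 268 genes examined against the normal diet, 186 kept direction and call under all 14 alternatives, and of 76 examined against FAT-MASH alone, 22. Without a filter on low counts some p-values were far smaller (Gpnmb 1.46e-33 in place of 0.266), so no result here rests on its calls. Genes at a few CPM, such as Camp, rest on few reads.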
